A study of Mus musculus with 6 samples.

Results

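Semaphorins, plexins and neuropilins were followed in cultured mouse fibroblastic reticular cells (FRCs), the fibroblasts that hold up the T cell zone of lymph nodes and its conduits. The members were taken by symbol from the unfiltered count table, a rule chosen with earlier results of these data known. All rows named as a semaphorin of class 3 to 7, a plexin of family A to D, or neuropilin 1 or 2 were used. This gave 31 of 55367 genes, made up of 20 semaphorins, 9 plexins and 2 neuropilins. All 6 libraries came from an FRC cell line, whose strain, genotype and clonality the labels do not give, kept for 96 h in conditioned medium that was renewed every 48 h. Control medium had been conditioned by FRCs themselves, 67NR medium by the mouse mammary carcinoma line 67NR, and 4T1 medium by the related line 4T1, which is known to metastasise where 67NR does not. Each medium had been conditioned for 24 h and was then supplemented with 2% serum, and each group held 2 libraries. Messenger RNA was sequenced, and the comparisons ask how FRC transcripts differ between the media.

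Semaphorins are secreted or membrane-bound guidance signals that share a sema domain, and plexins are the receptors that carry their signal to the actin cytoskeleton and to integrin adhesion. Class 3 semaphorins are secreted, and most bind a complex in which a neuropilin holds the ligand and a plexin of family A or D signals. Sema3e, by contrast, can bind Plxnd1 alone. Neuropilins also bind vascular endothelial growth factors (VEGFs). In lymph nodes and their vessels these signals are known for guiding endothelial cells and for the movement of leukocytes.

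Total counts per library ran from 13581510 to 21797578. Levels are given as CPM, counts scaled to a common library size with the TMM method, and 1 count was worth 0.0463 to 0.0743 CPM. Mitochondrial genes took at most 1.87% of counts in control medium and more in each library of 67NR (up to 2.28%) and 4T1 medium (up to 2.37%), and the part of this in the results was not tested. Separate cultures are not named for the 2 libraries of a medium, so p-values measure the spread between these libraries, which may be technical. That spread was estimated over all 3 groups together, though the 2 libraries of 4T1 medium differed more than those of the other media. Their chi-square per degree of freedom was 7.96, against 4.09 in control and 4.2 in 67NR medium. Of 10 FRC markers, Cxcl13, Ccl19, Ccl21a and Thy1 had no counts in any library, while the summed level of the list was 827 to 856 CPM in control, 972 to 996 in 67NR and 1173 to 1279 in 4T1 medium. Its members did not move together: from control to 4T1 medium the mean level went from 206 to 628 CPM for Vcam1 and from 33.7 to 128 for Pdgfra, but from 370 to 218 for Pdgfrb and from 124 to 105 for Pdpn. The 5 leukocyte markers summed to 0.0743 CPM or less in every library. The 4 epithelial markers summed to 1.49 to 1.92 CPM in control, 1.34 to 1.36 in 67NR and 0.163 to 0.608 in 4T1 medium, most of it Cdh1 in control and 67NR medium, with Epcam at 0 throughout. The 5 Schwann cell and neuron markers, nearly all Tubb3, summed to 81.1 to 97 CPM in control, 38.9 to 40.8 in 67NR and 93.1 to 94.4 in 4T1 medium, with Rbfox3 at 0. The 6 endothelial markers were near the detection limit and moved between media, at 2.34 to 3.57 CPM in control, 3.31 to 3.71 in 67NR and 0.763 to 1.01 in 4T1 medium, with Prox1 at 0. The lower sum in 4T1 than in control medium came mostly from Kdr and Tek, whereas Pecam1 was at 0.608 and 0.49 CPM in 4T1 against 0.467 and 0.372 in control medium. The part of these marker lists in the results was not tested. In bulk RNA, fewer cells that express a gene and less of its RNA per cell cannot be told apart, and no group had unconditioned medium.

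Of the 31 members, 23 passed the filter on low counts and were tested among 15055 genes. The 8 that did not were Sema3c, Sema3d, Sema4a, Sema4f, Sema5b, Sema6a, Plxnb3 and Plxnc1. None of these 8 had more than 20 counts over the 2 libraries of a group. Sema4f and Plxnc1 had no counts in control medium, Sema6a none in control and 67NR medium, and Sema5b none in 4T1 medium, where a count of 0 allows up to 3 counts. Sema4d and Sema6b reached the filter's level in both libraries of 4T1 medium alone, and Sema6d in both of 67NR medium alone, so that being tested was tied to their level in that group.

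Levels of different genes are given per kilobase (kb) of annotated exons. In control medium 14 members reached at least 1 CPM per kb. Plxnb2, a receptor of class 4 semaphorins, led with 110 CPM per kb, followed by Plxna1 with 34.7, Nrp1 with 16.6, Nrp2 with 12.7, Plxna2 with 11.1 and Sema3a with 10.7. Plxnd1 was at 9.47, Sema3e at 6.77, Plxna3 at 5.71 and Sema3f at 4.85 CPM per kb, so that the top 5 were receptors and co-receptors. The order among Plxna1, Nrp1, Nrp2, Plxna2 and Sema3a depends on the length used: per kb of the longest transcript, Nrp1 (44.6) stood above Plxna1 (34.7) and Sema3a (24.9) above Nrp2 (22.3). Sema3a, Sema3c, Sema3d and Sema3e lie in neighbouring positions of chromosome 5, between 12383385 and 17730268 (mm10), and of these 4 genes Sema3a and Sema3e were well expressed in control medium, at 148 ± 0.563 and 62.9 ± 5.18 CPM (mean ± SD, n = 2), while Sema3c and Sema3d had 7 and 10 counts in that group.

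In 4T1 medium against control medium, the secreted repellents Sema3a, Sema3e and Sema3f and both neuropilins fell, and the low-level ligand Sema3g rose. Of the 23 tested members, 10 were lower and 5 higher, where 19.2% and 19.9% of all genes tested were lower and higher (39.1% in either direction). The 5 higher include Sema6b, which was tested through its level in 4T1 medium. The libraries of the 2 media did not overlap for 20 of the 23 members, against 67.4% of all genes. The median log2 fold change of the tested members was -0.20, beside 0.01 over all genes. The calls were made with the quasi-likelihood test of edgeR and Benjamini-Hochberg adjustment over all genes, at a threshold of 0.05, as were all adjusted p-values given here.

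Sema3a, the secreted ligand that signals through Nrp1 and plexins of family A, lies on chromosome 5 (13125414 to 13602565). Its level was 148 and 147 CPM in the control libraries, 120 and 127 in 67NR medium, and 21.8 and 25.6 in 4T1 medium. Both 4T1 libraries stood far below the other 4, and no groups overlapped. Sema3a fell 6.21-fold in 4T1 against control medium (log2 -2.63, SE 0.08, edgeR adjusted p = 7.4e-11) and was 5.18-fold lower in 4T1 than in 67NR medium (log2 -2.37, SE 0.08, edgeR adjusted p = 2.01e-10). In 67NR against control medium the fall was small (log2 -0.26, SE 0.07, edgeR adjusted p = 0.0173), and this call ended when any library of those 2 groups was left out, with adjusted p = 0.18 without 67NR replicate 1, 0.0682 without 67NR replicate 2, 0.105 without control replicate 1 and 0.0961 without control replicate 2.

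Sema3e (chromosome 5, 14025276 to 14256689), the ligand of Plxnd1, had 59.2 and 66.5 CPM in control, 75.9 and 74.7 in 67NR, and 18 and 24.6 CPM in 4T1 medium. It was 2.92-fold lower in 4T1 than in control medium (log2 -1.55, SE 0.12, edgeR adjusted p = 3.31e-07) and 3.51-fold lower than in 67NR medium (log2 -1.81, SE 0.11). The 67NR libraries were both above the control libraries, at a difference that did not pass (log2 0.26, SE 0.10, edgeR adjusted p = 0.0787); it passed without 4T1 replicate 1 (0.00553) or 4T1 replicate 2 (0.00572), in the fit of the 2 groups alone (0.00533), with the replicate number as a block (0.0386) and without a filter (0.0166). Sema3f (chromosome 9, 107681500 to 107710475), a ligand that prefers Nrp2, had 23.7 and 26.8 CPM in control, 22.6 and 23.6 in 67NR, and 13.8 and 13.9 in 4T1 medium. It fell by 0.86 on the log2 scale in 4T1 against control medium (SE 0.10, edgeR adjusted p = 2.26e-05). Sema3b, its neighbour on chromosome 9, stayed between 0.743 and 1.71 CPM in all 6 libraries and was called in no comparison, with edgeR adjusted p = 0.731 to 0.987.

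Sema3g (chromosome 14, 31217860 to 31230352), a class 3 ligand known from endothelium, went the other way. It had 0.935 and 0.892 CPM in control, 1.34 and 0.876 in 67NR, and 8.38 and 6.75 CPM in 4T1 medium, from 30, 47 and 248 counts per group. The 4T1 libraries stood above all others, while control and 67NR medium overlapped. Sema3g was 8.16-fold higher in 4T1 than in control medium (log2 3.03, SE 0.27, edgeR adjusted p = 1.38e-06) and 6.72-fold higher than in 67NR medium (log2 2.75, SE 0.24, edgeR adjusted p = 1.08e-06). In the same 4T1 libraries the summed endothelial markers were lower than in control and in 67NR medium, as given above. Pecam1 was not lower than in control medium, but it lay below the 0.88 and 0.876 CPM of the 67NR libraries.

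The make-up of the class 3 transcripts changed with these genes. The summed level of all 7 class 3 genes was 22.2 and 23.4 CPM per kb in control, 21.8 and 22.2 in 67NR, and 8.34 and 8.9 in 4T1 medium. Sema3a made up 48.1 and 45.4% of that sum in the control libraries, 39.7 and 41.1% in 67NR and 18.9 and 20.8% in 4T1 medium. Sema3g made up 0.926 and 0.839% in control, 1.36 and 0.868% in 67NR, and 22.1 and 16.7% in 4T1 medium. With the longest transcript as gene length the shares of Sema3a were 60.5 and 57.8% in control and 29.1 and 31.2% in 4T1 medium, and those of Sema3g 0.498 and 0.457% and 14.6 and 10.8%.

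**Figure D1:**
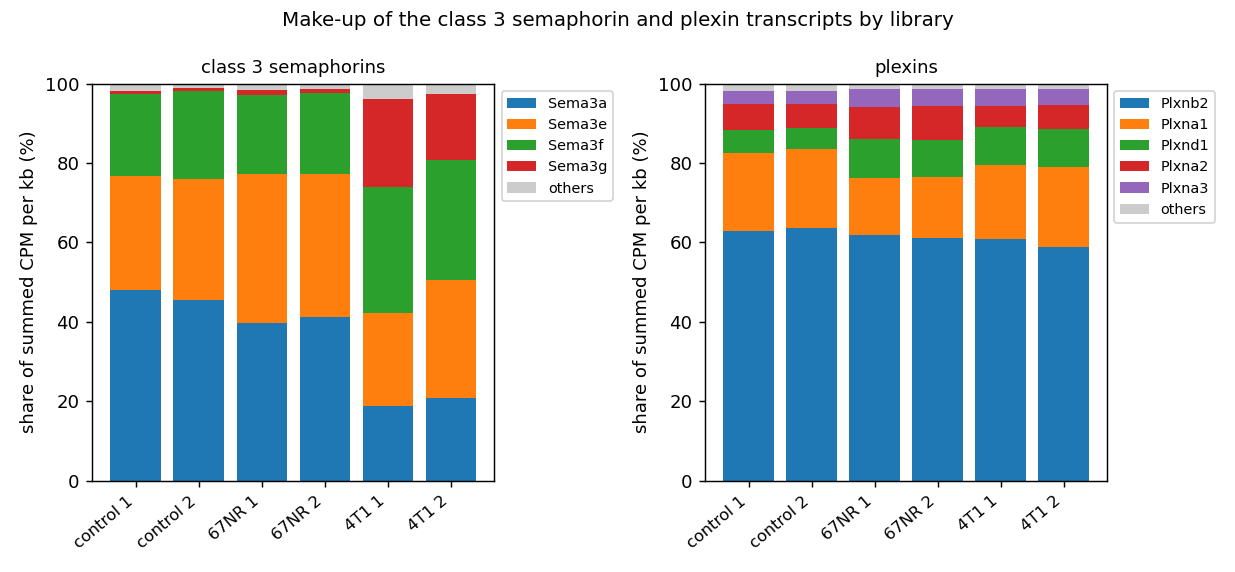
Share of the summed CPM per kb (%) of class 3 semaphorins (left) and plexins (right) in each of the 6 libraries, named by medium and replicate. Sema3a, Sema3e, Sema3f and Sema3g are drawn singly on the left. Plxnb2, Plxna1, Plxnd1, Plxna2 and Plxna3 are drawn singly on the right, and the rest are pooled as others. The Sema3a share is 18.9 and 20.8% in the 4T1 libraries and 39.7% or more in the other 4, and Plxnb2 makes up the largest share of the plexins in all 6.

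To show the sequence just before the start of genes that moved in opposite directions, bases 250 to 51 upstream of the RefSeq start (GRCm38.p6) are printed 5′ to 3′ for a ligand and a receptor that fell, Sema3a and Nrp2, and for a pair of ligands that rose, Sema3g and Sema6b. Capitals mark a match to an interferon-stimulated response element (ISRE), and windows without capitals held no match to any of the 5 motifs searched. A Sema6b window was printed only if it held a match, a condition set for no other printed gene.
Sema3a, chr5:13396534-13396733, plus strand: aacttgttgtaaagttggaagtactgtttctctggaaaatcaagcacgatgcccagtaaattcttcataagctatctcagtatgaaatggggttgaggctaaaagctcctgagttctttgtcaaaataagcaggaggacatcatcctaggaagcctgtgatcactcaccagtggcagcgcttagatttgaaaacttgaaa
Nrp2, chr1:62703067-62703266, plus strand: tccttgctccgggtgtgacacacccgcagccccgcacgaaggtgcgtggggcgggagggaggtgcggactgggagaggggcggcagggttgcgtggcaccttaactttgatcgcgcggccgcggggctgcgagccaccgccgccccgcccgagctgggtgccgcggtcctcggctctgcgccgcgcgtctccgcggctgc
Sema3g, chr14:31217623-31217822, plus strand: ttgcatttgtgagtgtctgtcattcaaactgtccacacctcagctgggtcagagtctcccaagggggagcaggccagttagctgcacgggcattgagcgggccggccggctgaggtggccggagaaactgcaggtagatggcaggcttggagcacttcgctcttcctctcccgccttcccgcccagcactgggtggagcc
Sema6b, chr17:56140394-56140593, minus strand: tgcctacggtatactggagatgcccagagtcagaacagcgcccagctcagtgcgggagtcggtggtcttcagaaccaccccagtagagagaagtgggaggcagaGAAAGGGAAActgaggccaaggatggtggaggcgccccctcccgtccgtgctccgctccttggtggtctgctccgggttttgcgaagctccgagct
The Sema3a window lies inside an intron of the gene as GENCODE draws it, because that annotation also has a start further upstream. Its GC content was 41% with 2 CpG dinucleotides, against 75.5% with 28 for Nrp2, 62% with 8 for Sema3g and 61.5% with 11 for Sema6b. Over all 32851 windows of the same length the median was 51.5% with 4 CpG.

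Both strands of these windows were searched for NF-kB sites and for the letters TTCNNNGAA (STAT), TGANTCA (AP-1) and TTGCNNAA (C/EBP), and for the ISRE as GAAA, any 2 bases and GAAA again. Windows were at hand for 26 members, 37 in all. NF-kB was found in windows of Sema4a and Sema4c, where 3.13% of all windows hold it, and ISRE in windows of Sema6b and Plxnc1, where 2.4% do. AP-1 was found for Sema4d (5.57% of all windows), C/EBP for Plxna3 and Sema4a (8.11%), and STAT for none (5.76%). The Sema6b match spans bases -146 to -137 from the start. These are matches of letters only.

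Among the membrane-bound semaphorins, 3 of the 4 tested class 4 genes were called higher in 67NR and 2 in 4T1 against control medium, where 13.0% and 19.9% of all genes were. In 67NR medium the calls of Sema4b and Sema4c did not hold without single libraries, as given with their values. Sema4c (chromosome 1, 36548639 to 36558349), a ligand of Plxnb2, had 17.2 and 19.1 CPM in control, 22.2 and 21.6 in 67NR, and 26.9 and 28.7 CPM in 4T1 medium. The 3 groups did not overlap, with 4T1 highest and control lowest. Sema4c rose 1.54-fold in 4T1 against control medium (log2 0.62, SE 0.10, edgeR adjusted p = 0.000192). In 67NR against control medium its log2 difference of 0.28 (SE 0.10) passed narrowly (edgeR adjusted p = 0.0449) and did not pass in 7 of 14 alternatives, among them the removal of either library of control or of 67NR medium, over which adjusted p ranged from 0.0695 to 0.326. Between 4T1 and 67NR medium Sema4c also differed (log2 0.34, SE 0.09, edgeR adjusted p = 0.00762), which was lost without 67NR replicate 2 (0.071) and by DESeq2 (0.0575). A transcript of the opposite strand overlaps 7.27% of Sema4c's exonic bases, and the strand setting of the counting is not given in the sources used here.

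Sema4g had 3.95 and 3.42 CPM in control, 7.23 and 6.23 in 67NR, and 5.95 and 5.83 CPM in 4T1 medium, so that both tumour media lay above control. It rose by 0.86 on the log2 scale in 67NR medium (SE 0.17, edgeR adjusted p = 0.00238) and by 0.66 in 4T1 medium (SE 0.18, edgeR adjusted p = 0.0105), the latter with adjusted p = 0.0654 without control replicate 2 and 0.0563 by DESeq2. Sema4b had 7.01 and 7.51 CPM in control, 11.5 and 9.15 in 67NR, and 9.19 and 9.1 in 4T1 medium. Its 4T1 level did not pass against control (log2 0.34, SE 0.15, edgeR adjusted p = 0.0984) or 67NR medium (log2 -0.18, SE 0.14, edgeR adjusted p = 0.341). Sema4b was called in 67NR against control medium (log2 0.51, SE 0.15, edgeR adjusted p = 0.0189). That call ended without 67NR replicate 1 (adjusted p = 0.23), control replicate 1 (0.139) or control replicate 2 (0.0613), and by DESeq2 (0.0753). Sema4d, the ligand of Plxnb1, had 16 and 4 counts in control, 11 and 13 in 67NR, and 16 and 31 in 4T1 medium. Its difference between 4T1 and 67NR medium was called (log2 1.29, SE 0.44, edgeR adjusted p = 0.0295) and was lost without 4T1 replicate 2 (adjusted p = 0.248), 67NR replicate 1 (0.165) or 67NR replicate 2 (0.0916), and by DESeq2 (0.139). Against control medium Sema4d did not pass (log2 1.21, SE 0.46, edgeR adjusted p = 0.0523), and it passed without 4T1 replicate 1 (0.042) or control replicate 1 (0.0344), with library totals as scaling (0.0447), without a filter (0.0198) and by limma-voom (0.0477).

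Sema5a (chromosome 15, 32244810 to 32696341), a transmembrane semaphorin with thrombospondin repeats, was raised in 67NR medium. It had 40.2 and 37.3 CPM in control, 71.2 and 76.6 in 67NR, and 33.5 and 45.8 CPM in 4T1 medium. Both 67NR libraries stood above the other 4, and the 4T1 libraries lay on either side of control. Sema5a was 1.90-fold higher in 67NR than in control medium (log2 0.93, SE 0.11, edgeR adjusted p = 6.07e-05) and 1.85-fold higher than in 4T1 medium (4T1 against 67NR log2 -0.89, SE 0.11, edgeR adjusted p = 3.37e-05). In 4T1 against control medium it was not called (log2 0.04, SE 0.12, edgeR adjusted p = 0.844), although without 4T1 replicate 1 it just passed (log2 0.22, adjusted p = 0.0499).

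Class 6 and class 7 semaphorins were scarce. Sema6b (chromosome 17, 56123085 to 56140343), a ligand of plexins of family A, had 3 and 1 counts in control, 5 and 8 in 67NR, and 26 and 21 in 4T1 medium. Its level in 4T1 medium, 1.76 and 1.14 CPM, lay above all other libraries, and the difference from control was called (log2 3.48, SE 0.59, edgeR adjusted p = 0.000456), as was that from 67NR medium (log2 2.18, SE 0.46, edgeR adjusted p = 0.0017). Sema7a, a membrane-anchored ligand of Plxnc1 and of integrins with the Itgb1 chain, went down over the same media, with 21 and 16 counts in control, 14 and 14 in 67NR, and 4 and 4 in 4T1 medium. It fell by 2.20 on the log2 scale in 4T1 against control medium (SE 0.48, edgeR adjusted p = 0.00261). The difference of Sema7a between 4T1 and 67NR medium (log2 -1.43, SE 0.51, edgeR adjusted p = 0.0359) was lost when any 1 of the 6 libraries was left out, with adjusted p from 0.0592 without control replicate 1 to 0.177 without 4T1 replicate 2, and by DESeq2 (0.16). Sema6c was between 3.99 and 5.74 CPM in all libraries and was called in 4T1 against 67NR medium (log2 -0.49, SE 0.17, edgeR adjusted p = 0.0337), a call that ended without either library of 4T1 or of 67NR medium (adjusted p = 0.0689 to 0.118) and by DESeq2 (0.147). Sema6d had 4 to 14 counts per library and was not called in any comparison, but passed in 4T1 against control medium without 4T1 replicate 2 (adjusted p = 0.0398).

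**Figure D2:**
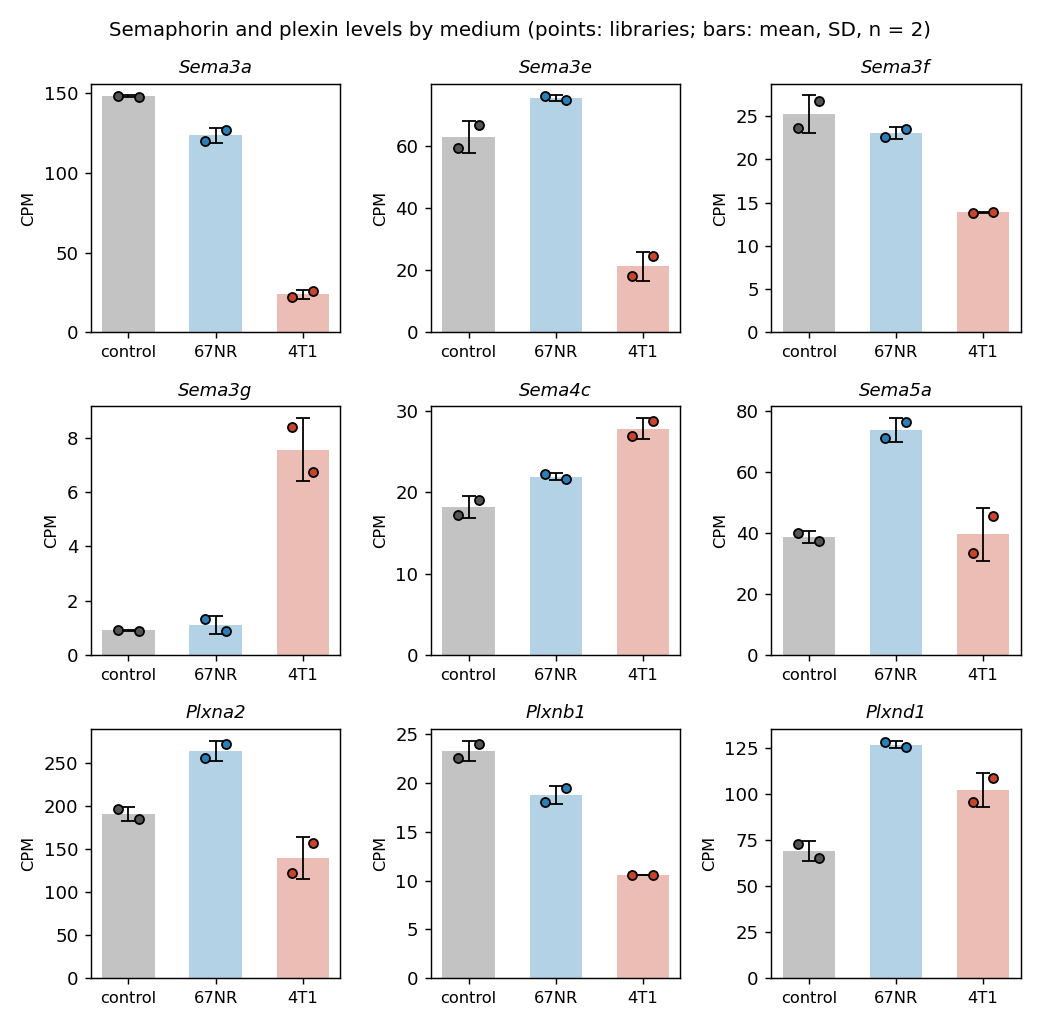
CPM (vertical axes, from 0) of 6 semaphorins and 3 plexins in control, 67NR and 4T1 medium; points are libraries, bars the mean and lines the SD of n = 2. Sema3a, Sema3e, Sema3f and Plxnb1 are lowest in 4T1 medium and Sema3g highest there, while Sema5a, Plxna2 and Plxnd1 are highest in 67NR medium.

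Both neuropilins, the ligand-binding co-receptors, were lower in 4T1 medium. Nrp2 (chromosome 1, 62703285 to 62818695), the co-receptor of Sema3f and of VEGF-C, had 151 and 149 CPM in control, 152 and 164 in 67NR, and 47.5 and 48.1 CPM in 4T1 medium. The 4T1 libraries stood far below the other 4, and control and 67NR medium lay close together. Nrp2 was 3.14-fold lower in 4T1 than in control medium (log2 -1.65, SE 0.07, edgeR adjusted p = 1.29e-09) and 3.31-fold lower than in 67NR medium (log2 -1.72, SE 0.07). Its difference between 67NR and control medium did not pass (log2 0.08, SE 0.07, edgeR adjusted p = 0.43).

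Nrp1 (chromosome 8, 128358604 to 128503363), the co-receptor of Sema3a and of VEGF-A, had 166 and 160 CPM in control, 205 and 194 in 67NR, and 85.8 and 110 CPM in 4T1 medium. The 3 groups did not overlap, with 67NR highest and 4T1 lowest. Nrp1 fell by 0.73 on the log2 scale in 4T1 against control medium (SE 0.10, edgeR adjusted p = 5.44e-05) and was 2.03-fold lower in 4T1 than in 67NR medium (log2 -1.02, SE 0.09, edgeR adjusted p = 1.75e-06). The rise in 67NR against control medium (log2 0.29, SE 0.09, edgeR adjusted p = 0.0319) was lost when any library of those 2 groups was left out, with adjusted p = 0.201 without 67NR replicate 1, 0.0847 without 67NR replicate 2, 0.112 without control replicate 1 and 0.18 without control replicate 2. The summed level of both neuropilins was 29.7 and 28.9 CPM per kb in control, 33.8 and 33.7 in 67NR, and 12.8 and 15.3 in 4T1 medium. Nrp1 made up 57 and 56.5% of it in control, 62 and 58.8% in 67NR and 68.6 and 73.4% in 4T1 medium.

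Of the 7 tested plexins, Plxna1, Plxna2, Plxnb1 and Plxnb2 fell and Plxnd1 rose in 4T1 against control medium. Of all genes, 19.2% were lower and 19.9% higher. The Plxna1 call was lost when either control library was left out, as given with its values. Plxna3 and Plxna4 were not called (edgeR adjusted p = 0.256 and 0.884). In 4T1 medium replicate 1 lay below replicate 2 for all 7 tested plexins, though barely for Plxnb1. The part of this shared difference between the libraries in the calls was not tested. Plxnb2 (chromosome 15, 89155549 to 89180788), the most abundant plexin per kb, had 844 and 854 CPM in control, 863 and 874 in 67NR, and 638 and 700 CPM in 4T1 medium. It was lower in 4T1 than in control medium (log2 -0.34, SE 0.07, edgeR adjusted p = 0.00109), and it made up 62.8 and 63.6% of the summed plexin level per kb in control and 60.9 and 59% in 4T1 medium. That sum was 174 CPM per kb in both control libraries, 180 and 185 in 67NR, and 136 and 154 in 4T1 medium. Plxnb1 (chromosome 9, 109095389 to 109119917), the receptor of Sema4d, had 22.6 and 24 CPM in control, 18.1 and 19.5 in 67NR, and 10.5 and 10.6 CPM in 4T1 medium, without overlap of the groups. It fell 2.20-fold in 4T1 against control medium (log2 -1.14, SE 0.10, edgeR adjusted p = 2.03e-06). Its smaller fall in 67NR medium (log2 -0.31, SE 0.09, edgeR adjusted p = 0.0276) was lost without any 1 library of control or 67NR medium (adjusted p = 0.0734 to 0.22) and by DESeq2 (0.163).

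Plxna2 (chromosome 1, 194618218 to 194816869), a co-receptor partner of neuropilins and receptor of class 6 semaphorins, changed in opposite directions in the 2 tumour media. It had 196 and 184 CPM in control, 256 and 272 in 67NR, and 122 and 157 CPM in 4T1 medium, again without overlap. It rose in 67NR (log2 0.47, SE 0.10, edgeR adjusted p = 0.00263) and fell in 4T1 against control medium (log2 -0.45, SE 0.10, edgeR adjusted p = 0.00265), comparisons that share the control libraries. The direct comparison of 4T1 with 67NR medium gave log2 -0.92 (SE 0.10, edgeR adjusted p = 5.57e-06). Plxna1 was lower in both tumour media, with 311 and 316 CPM in control, 232 and 256 in 67NR, and 229 and 278 in 4T1 medium. The fall was 0.36 on the log2 scale in 67NR (SE 0.09, edgeR adjusted p = 0.00752, but 0.112 without 67NR replicate 1 and 0.0586 without control replicate 2) and 0.31 in 4T1 medium (SE 0.09, edgeR adjusted p = 0.0137, but 0.0516 without control replicate 1 and 0.0765 without control replicate 2). An antisense gene overlaps 10.7% of Plxna1's exonic bases. Plxna1 did not pass between 4T1 and 67NR medium (log2 0.06, SE 0.09, edgeR adjusted p = 0.644), and did so without 4T1 replicate 1 (log2 0.18, adjusted p = 0.036).

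Plxna3 had 45.5 and 44.6 CPM in control, 63.5 and 62.8 in 67NR, and 46.8 and 50.7 in 4T1 medium, and rose in 67NR against control medium (log2 0.49, SE 0.07, edgeR adjusted p = 0.000309). Plxnd1 (chromosome 6, 115954811 to 115995005), the receptor of Sema3e, had 72.9 and 65.4 CPM in control, 128 and 126 in 67NR, and 95.9 and 109 CPM in 4T1 medium. Control was lowest and 67NR highest, without overlap. Plxnd1 rose in both tumour media against control, 1.83-fold in 67NR (log2 0.87, SE 0.08, edgeR adjusted p = 4.27e-06) and 1.48-fold in 4T1 medium (log2 0.56, SE 0.08, edgeR adjusted p = 0.000114). In 4T1 medium its ligand Sema3e fell, as given above. The lower Plxnd1 level in 4T1 than in 67NR medium (log2 -0.31, SE 0.08, edgeR adjusted p = 0.00593) was lost without 67NR replicate 1 (adjusted p = 0.052). Plxna4, between 5.28 and 10.5 CPM, was lowest in 67NR medium (log2 -0.74 against control, SE 0.17, edgeR adjusted p = 0.00611), a call that ended without 67NR replicate 1 (adjusted p = 0.0698) or control replicate 1 (0.102). Plxna4 was higher in 4T1 than in 67NR medium (log2 0.70, SE 0.17, edgeR adjusted p = 0.00481), which ended without 4T1 replicate 2 (0.0546) or 67NR replicate 1 (0.0533).

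Across the comparison of 67NR with control medium, 8 of the 23 tested members were higher and 4 lower, where 13.0% and 14.6% of all genes were higher and lower (27.6% in either direction). The groups did not overlap for 20 of the 23 members, against 67.6% of all genes. The members higher were Sema4b, Sema4c, Sema4g, Sema5a, Plxna2, Plxna3, Plxnd1 and Nrp1, and those lower were Sema3a, Plxna1, Plxna4 and Plxnb1. The median log2 fold change of the tested members was 0.26, beside 0 over all genes. These counts depended on single libraries. The number higher was 5 without 67NR replicate 1, control replicate 1 or control replicate 2, and the number lower by edgeR was 0 without 67NR replicate 1 (3 at an unadjusted p under 0.05, no other tool was run without that library), 2 without 67NR replicate 2 and 1 without either control library. The 5 members that were called higher under all alternatives run were Plxna2, Plxna3, Plxnd1, Sema4g and Sema5a.

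Between 4T1 and 67NR medium, 13 tested members were lower and 5 higher in 4T1 medium, where 19.9% and 23.5% of all genes were lower and higher (43.4% in either direction). The groups did not overlap for 19 of the 23 members, against 70.1% of all genes. The median log2 fold change was -0.37, beside 0.03 over all genes. The 5 higher were Sema3g, Sema4c, Plxna4 and, tested through their level in 4T1 medium, Sema4d and Sema6b, and 3 were called higher without 4T1 replicate 2, without 67NR replicate 1 or without 67NR replicate 2. Those called under every alternative that gave a value numbered 12, namely Sema3g and Sema6b, which were higher, and Nrp1, Nrp2, Plxna2, Plxna3, Plxnb1, Plxnb2, Sema3a, Sema3e, Sema3f and Sema5a, which were lower. In 4T1 against control medium, 13 of the 15 calls held under every alternative that gave a value, with Plxna1 and Sema4g as the exceptions. The 13 include Sema6b, which was tested through its level in 4T1 medium. Sema6b is not among the authors' filtered genes, so that alternative gave it no value in either comparison.

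**Figure D3:**
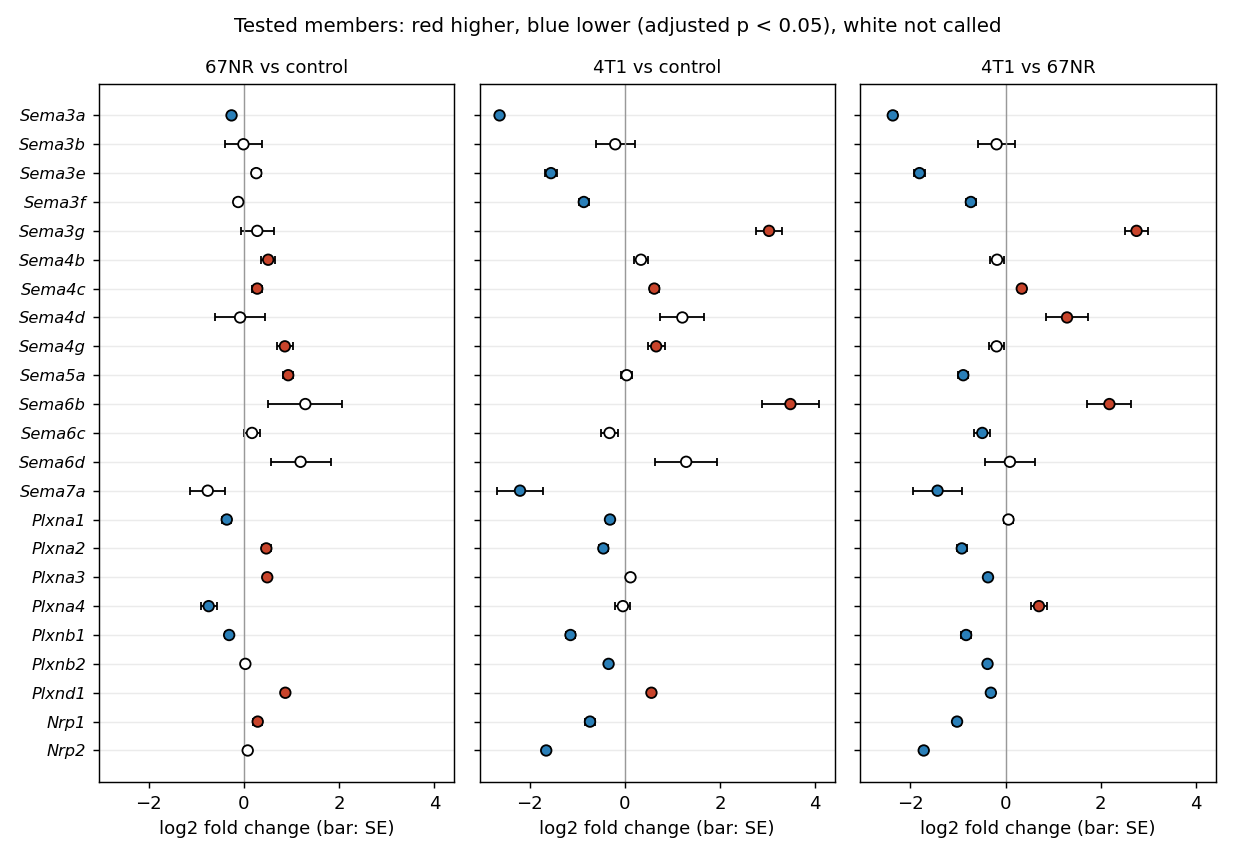
Log2 fold change (horizontal axis, bars are SE) of the 23 tested members in the 3 comparisons, each with n = 2 libraries per group; red is called higher, blue called lower and white not called. Sema3a (log2 -2.63) and Sema3g (log2 3.03) lie at opposite ends of class 3 in 4T1 against control medium, and the 67NR values against control lie between -0.76 (Sema7a) and 1.29 (Sema6b), neither of which was called.

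The other genes of the pathway were taken from lists by known role, 57 genes in all, of which 48 were tested. In 4T1 against control medium 11 were higher and 17 lower, in 67NR against control 6 and 7, and in 4T1 against 67NR medium 12 and 16, with median log2 fold changes of -0.06, 0.03 and -0.07. Called in either direction were thus 58.3%, 27.1% and 58.3% of the 48, beside 39.1%, 27.6% and 43.4% of all genes, so that the 67NR share was near that of all genes. The 67NR counts fell to 2 higher without 67NR replicate 2, control replicate 1 or control replicate 2 and to 3 higher and 4 lower without 67NR replicate 1, and 11 were lower without either 4T1 library. In 4T1 against 67NR medium the number higher was 7 without 67NR replicate 1 and 6 without 67NR replicate 2. Among 7 tested receptors and co-receptors, 5 fell and 1 rose in 4T1 against control medium, with a median log2 fold change of -0.63, where 19.2% and 19.9% of all genes were lower and higher. Nrcam, an adhesion molecule of the L1 family that associates with neuropilins, was the receptor that rose. It had 3 and 6 counts in control, 5 and 5 in 67NR, and 82 and 97 in 4T1 medium. Its difference between 4T1 and control medium was called (log2 4.25, SE 0.37, edgeR adjusted p = 1.24e-06). Nrcam reached the filter's level in 4T1 medium alone, so that being tested was tied to its level in that group. Flt1, a VEGF receptor, had 10.5 and 13.5 CPM in control, 10.4 and 9.25 in 67NR, and 4.73 and 4.08 CPM in 4T1 medium (4T1 against control log2 -1.44, SE 0.17, edgeR adjusted p = 2.22e-05). The hepatocyte growth factor receptor Met, which can associate with class B plexins, fell from 277 ± 3.69 in control to 178 ± 33.4 CPM in 4T1 medium (n = 2 per group). Erbb2, a partner of class B plexins, was the receptor that rose in 67NR medium (46.9 ± 1.42 to 54.5 ± 2.6 CPM, edgeR adjusted p = 0.0474). This narrow call was not followed for the gene alone when single libraries were left out. Kdr, the main VEGF receptor of endothelium and one of the endothelial markers above, had 1 count in 4T1 medium against 60 in 67NR medium, a level 47.2-fold higher in 67NR medium with a 95% counting interval of 8.16 to 1895.

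VEGF ligands, which neuropilins also bind, all changed in 4T1 against control medium, 2 upward and 3 downward, where 39.1% of all genes were called. In 67NR against control medium their log2 differences were 0.02 to 0.46, with edgeR adjusted p = 0.25 to 0.908. Vegfa had 91.4 and 83.5 CPM in control, 91.1 and 89.9 in 67NR, and 227 and 220 CPM in 4T1 medium. Vegfc, the lymphatic growth factor, had 4 and 3.79 CPM in control, 4.31 and 4.09 in 67NR, and 20.5 CPM in both 4T1 libraries (4T1 against control log2 2.39, SE 0.13, edgeR adjusted p = 1.61e-08). Both stood above all other libraries in 4T1 medium, where Nrp1 and Nrp2 were lowest. Pgf fell by 2.04 on the log2 scale in 4T1 against control medium (SE 0.47, edgeR adjusted p = 0.00409), at a low level of 1.35 ± 0.439 CPM in control medium (n = 2).

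Of 31 tested cytoplasmic effectors of plexins, 9 fell and 6 rose in 4T1 against control medium, and 6 fell and 3 rose in 67NR against control medium. That is 48.4% and 29% called, beside 39.1% and 27.6% of all genes. Rnd1, a small GTPase that binds the cytoplasmic part of plexins, had 42.3 and 47.7 CPM in control, 26.2 and 24.8 in 67NR, and 127 and 115 CPM in 4T1 medium. The groups did not overlap and the tumour media lay on opposite sides of control. Rnd1 rose by 1.43 on the log2 scale in 4T1 medium (SE 0.08, edgeR adjusted p = 2.45e-08) and fell by 0.82 in 67NR medium (SE 0.09, edgeR adjusted p = 2.15e-05), and it was higher in 4T1 than in 67NR medium (log2 2.25, SE 0.09, edgeR adjusted p = 4.29e-10). The kinase Fyn rose from 62.6 ± 2.91 to 98.6 ± 4.29 CPM in 4T1 against control medium, and Mras, a GTPase of the Ras family, fell from 72.4 ± 3.56 to 46.6 ± 2.1 CPM in 4T1 and 48.6 ± 0.292 CPM in 67NR medium. Mical3, a relative of the actin oxidase Mical1, rose in 67NR medium from 50.7 ± 6.46 to 84.7 ± 3.28 CPM. Dpysl2, a collapsin response mediator of semaphorin signalling, was lower in 4T1 than in 67NR medium (34.9 ± 0.668 against 65.5 ± 10.9 CPM).

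Of 5 tested proteases that process semaphorins or related proteins, Furin and Adam17 rose in 4T1 against control medium, and 2 rose and 1 fell in 67NR against control medium, where 39.1% and 27.6% of all genes were called. Furin, the convertase that cleaves class 3 semaphorins, had 55.8 and 55.3 CPM in control, 67.5 and 64.9 in 67NR, and 77.1 and 81.9 CPM in 4T1 medium. The 3 groups did not overlap, and Furin rose in 4T1 (log2 0.52, SE 0.07, edgeR adjusted p = 8.03e-05) and in 67NR medium (log2 0.25, SE 0.07, edgeR adjusted p = 0.0176). The membrane protease Mmp14, known to cleave Sema4d, had 808 and 703 CPM in control, 1346 and 1275 in 67NR, and 838 and 852 in 4T1 medium, a rise in 67NR against control medium (log2 0.79, SE 0.07, edgeR adjusted p = 5.23e-06). Adam17, a sheddase, rose from 74.6 ± 2.81 to 88.5 ± 5.15 CPM in 4T1 medium, and the convertase Pcsk6 fell from 11.5 ± 1.64 to 8.03 ± 0.682 CPM in 67NR medium (n = 2 per group). Calls of single partner genes, such as those of Furin and Pcsk6 in 67NR medium, were not followed under the alternatives. The 67NR counts of partner genes depended on single libraries, as given above.

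**Figure D4:**
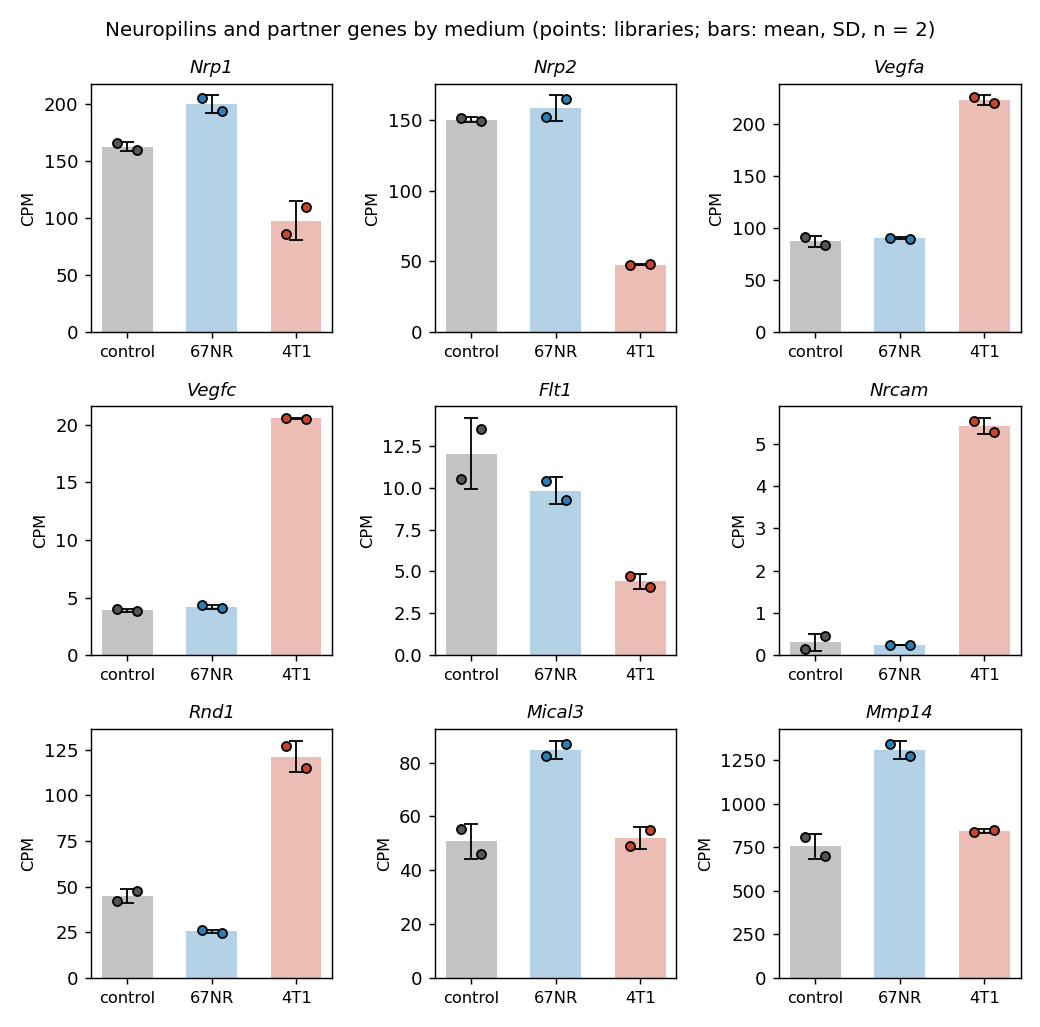
CPM (vertical axes, from 0) of both neuropilins and 7 partner genes in control, 67NR and 4T1 medium; points are libraries, bars the mean and lines the SD of n = 2. Nrp1, Nrp2 and Flt1 are lowest in 4T1 medium, Vegfa, Vegfc, Nrcam and Rnd1 highest there, and Mical3 and Mmp14 highest in 67NR medium.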

How the data were processed

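The authors deposited 2 tables of raw counts, whole numbers per gene symbol: an unfiltered one of 55367 genes and a filtered one of 14629. The submitters' processing notes name Subread, DESeq2 1.32.0 and the build mm10, with no role or order. The sources used here give neither the strand setting nor the filter rule. The unfiltered counts of 6 libraries, 2 per medium, were filtered with filterByExpr (minimum count 10, minimum total 15), scaled by TMM and fitted in 1 quasi-likelihood model with edgeR 4.0.16 (prior count 0.125, 3 residual and 9.62 prior degrees of freedom, R 4.3.3), with Benjamini-Hochberg adjustment over 15055 genes. Each standard error was computed as |log2 fold change| over the root of the test's F. Fitted fold changes of genes with few counts depend on the prior count. Depth limits low genes: intervals and limits on counts of 0 cover counting error only. Gene positions and exon lengths come from GENCODE M21 (GRCm38, the assembly of mm10), where all 31 members matched, and promoter windows from RefSeq (GRCm38.p6), where 26 did. The table was searched as bases 250 to 51 upstream, with both strands read and overlapping matches kept. The NF-kB motif is the usual consensus of its name.

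The members, lists and rules were chosen with earlier results of these data known. All members are named. Of each partner list at most 3 called genes with the smallest adjusted p were named per comparison; Kdr is also an endothelial marker. Alternatives were other scalings (DESeq2 size factors, library totals), no filter, the authors' filtered genes, a replicate block, leaving out 1 library at a time (a lone library is then assumed to vary like the other groups), fits of the 2 groups compared, limma-voom 3.58.1 and the Wald test of DESeq2 1.42.0. Figures used Python 3.11.15 with matplotlib 3.10.9.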

Additional observations from a re-analysis of the deposited data

How the results depend on the processing

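Deviations of same-numbered libraries correlated at -0.041 (control and 67NR), 0.005 (control and 4T1) and 0.069 (67NR and 4T1). With 2 libraries per medium, these values cannot decide whether the replicate numbers pair the libraries. The mitochondrial share was higher in replicate 2 than in replicate 1 of each medium, and a shared replicate effect was not tested further than by the block. With the replicate block the members called were 5 higher and 10 lower (4T1 against control), 9 and 4 (67NR against control) and 5 and 13 (4T1 against 67NR), and all genes called were 6057, 4382 and 6668, against 5888, 4150 and 6531 without it. Over 961 single-member results under an alternative, 895 stayed on their side of the threshold, 53 were no longer past it and 13 newly passed; 0 called values changed sign. Counts moved by over 1.5 times as follows. The DESeq2 Wald test gave 3 members higher in 4T1 than 67NR medium. With 1 library left out, 67NR against control ranged from 5 to 9 members higher, 0 to 4 lower, 2 to 9 partner genes higher, 4 to 11 lower, and 2227 to 5336 genes called; 4T1 against 67NR ranged from 3 to 6 members higher and 6 to 13 partner genes higher. The cause was not tested, beyond the smaller number of libraries. With the longest transcript as gene length, 14 members again reached 1 CPM per kb in control medium. Depth limits Sema4d, Sema6b, Sema6d, Sema7a and the 8 untested members, with few counts each.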
